A study of Mus musculus with 2 samples.

Results

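The heat shock chaperones described here are 10 genes, taken by symbol from the 32285 genes in the feature lists of both libraries. By their textbook roles they were placed in 3 groups, without use of any measured value. The inducible group held Hspa1a, Hspa1b, Hsph1, Hsp90aa1 and Dnajb1, the constitutive cytosolic group Hspa8, Hsp90ab1 and Dnaja1, and the mitochondrial group Hspd1 and Hspe1. Their transcripts were counted in single CD45+ spleen cells of wild-type mice that had received an intraperitoneal injection of 10000 iRBCs, an abbreviation the labels leave unexplained, and that were sampled at day 5. One library came from mice given Vehicle and the other from mice given Glutoborin, each on day 2 and day 4 after infection. CD45, the marker used for the sort, is carried by nearly all leukocytes. Each condition is 1 library, the sources used here give no number of mice, and no replicate error can be computed. All intervals below are therefore exact 95% intervals that cover counting error only, no test was run, and a difference between the libraries cannot be told apart from a difference between mice, preparations or capture runs.

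Heat shock proteins are chaperones that keep other proteins folded. HSP70 proteins (Hspa1a, Hspa1b, Hspa8) bind exposed stretches of unfolded protein in a cycle driven by ATP, J proteins (Dnajb1, Dnaja1) deliver clients to them and start ATP hydrolysis, and the HSP110 protein Hsph1 releases the bound nucleotide. HSP90 proteins (Hsp90aa1, Hsp90ab1) complete the maturation of kinases and receptors, and Hspd1 and Hspe1 form the barrel and the lid of the chaperonin of the mitochondrial matrix. Heat and other stresses that unfold proteins activate the transcription factor HSF1, which binds heat shock elements, arrays of inverted nGAAn units, in the promoters of the inducible genes. In leukocytes the inducible genes are also known to respond to cell activation, fever and the handling of cells during tissue dissociation.

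The promoters of 7 of the 10 members were in the RefSeq promoter table for GRCm38.p6, and the 250 bases before each start were searched on both strands for a pair of units, spelled TTCNNGAA or GAANNTTC, which can overlap each other. Some members have several annotated starts: of their 12 windows 7 held such a pair, against 12.8% of all 32851 windows of the same length. Counted by gene, with a match in any window, it was 6 of the 7 members and 14.5% of all 27025 genes. The 7 windows are not 7 separate sites. Both Hsph1 windows hold the same match, those of Hspa1a and Hspa1b are near copies, and Hspd1 and Hspe1 share theirs. A row of 3 units, the pair extended by another TTC or GAA at the same spacing, stood in 2 of the 12 windows, 1 each of Hspd1 and Hspe1, and in 0.466% of all windows (0.514% of genes). Hspd1 and Hspe1 lie head to head on chromosome 1, and the 2 windows with the element share 215 bases, so that this is 1 element counted for a pair of genes. The element holds 1 row of each spelling, and these rows overlap. No match was found in the Dnajb1 windows, and Hspa8, Hsp90aa1 and Hsp90ab1 were not in the table. A match is a description of the letters and was not tested for binding. Of the sequences below, those of Hspa1a and Hspa1b are shown whole because they are nearly the same, and those of Hsph1 and Hspe1 are 30 bases around the match, which fall partly or wholly in annotated first exons of Hsph1 and of Hspd1. Capitals mark the matched units and each sequence is written 5′ to 3′ on the strand of its gene.
Hspa1a, minus strand, chr17:34972157-34972406: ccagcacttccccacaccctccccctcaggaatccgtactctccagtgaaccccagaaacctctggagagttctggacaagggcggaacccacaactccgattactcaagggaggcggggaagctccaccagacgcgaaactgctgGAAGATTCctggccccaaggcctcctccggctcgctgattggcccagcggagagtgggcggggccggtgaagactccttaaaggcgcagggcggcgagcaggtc
Hspa1b, minus strand, chr17:34959239-34959488: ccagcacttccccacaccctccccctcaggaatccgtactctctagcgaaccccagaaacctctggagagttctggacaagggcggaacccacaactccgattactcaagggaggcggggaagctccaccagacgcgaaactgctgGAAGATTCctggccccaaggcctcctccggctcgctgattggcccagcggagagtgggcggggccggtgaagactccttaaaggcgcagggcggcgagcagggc
Hsph1, minus strand, chr5:149636351-149636380: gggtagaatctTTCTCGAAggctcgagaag
Hspe1, plus strand, chr1:55088053-55088082: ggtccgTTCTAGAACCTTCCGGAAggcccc

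Hspa1a and Hspa1b are neighbouring copies on the minus strand of chromosome 17 in GRCm38, with Hspa1a at 34969190-34972156 and Hspa1b at 34956436-34959238. Their 250 bases before the start differed at 3 positions, an identity of 98.8%, and their longest open reading frames were 99.4% identical. The last 300 bases of their transcripts, the stretch a 3′ library mostly reads, were only 49.8% identical. Reads from the open reading frame cannot be assigned to 1 copy, so the split between Hspa1a and Hspa1b is uncertain and their sum is given beside it. The other members are spread over the genome: Hsph1 on chromosome 5, Hsp90aa1 on 12, Dnajb1 on 8, Hspa8 on 9, Hsp90ab1 on 17, Dnaja1 on 4, and Hspd1 and Hspe1 on 1.

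The Vehicle library held 8204 barcodes and 48526451 UMIs (unique molecular identifiers, each standing for 1 captured transcript), and the Glutoborin library 9646 barcodes and 56862506 UMIs. Cells with under 10% mitochondrial UMIs that were not called doublets were kept, 6492 in Vehicle (79.1% of barcodes) and 8901 in Glutoborin (92.3%). The share of barcodes at or over the mitochondrial limit was 18.5% in Vehicle and 4.07% in Glutoborin, and the part of this gap in the results was not tested beyond the limits and strata given below. The libraries shared 20 barcodes among kept cells. Cells were clustered without the members among the genes used and named from marker lists, so that a class name means only that its cells look like that type: 13 classes had at least 20 cells in each library, and 6 with at least 100 were compared. Clusters that stayed unnamed held 464 Vehicle and 475 Glutoborin cells. Levels are given as CPM, counts per 1000000 UMIs summed over the cells of a class, which in pooled cells cannot separate fewer expressing cells from less RNA per cell.

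Across the 13 classes the constitutive HSP70 gene Hspa8 was highest in type 2 dendritic cells (2592 CPM in Vehicle and 1606 in Glutoborin) and lowest in neutrophils (610 and 592). In Vehicle, classical monocytes (2418) and NK cells (2313) followed type 2 dendritic cells, with intervals that overlap each other. In Glutoborin, classical monocytes stood at 920, below B cells outside the marginal zone class (1014) and above marginal zone B cells (806). Classical monocytes thus stood near the top of the order in Vehicle and near its bottom in Glutoborin, whereas the intervals of neutrophils overlapped. Over all kept cells Hspa8 was 1708 CPM in Vehicle and 1149 in Glutoborin.

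Hsp90ab1, the constitutive cytosolic HSP90, ranged from 516 CPM in neutrophils to 1874 in type 2 dendritic cells in Vehicle, and from 438 to 1510 in Glutoborin. Its log2 levels over the 13 classes correlated between the libraries with Pearson r = 0.97 (n = 13 classes of the same 2 libraries, a description). Hsp90aa1, the inducible HSP90, was highest in NK cells in both libraries (750 and 459 CPM). These NK levels include the dividing cells of clusters M14 and M15, described below. In Vehicle the median cells of M14 and M15 had 1472 and 1016 CPM of Hsp90aa1. The order of classes without these clusters is not given here. The profile of Hsp90aa1 over the classes was as well kept (r = 0.98, n = 13). With 23240 of the 29917 inducible UMIs in Vehicle and 21095 of 26137 in Glutoborin, Hsp90aa1 dominates the sum of the inducible group. Dnaja1, a J protein partner of Hspa8, was highest in regulatory T cells (473 and 392 CPM), and Dnajb1, the J protein of the stress response, in CD4 T cells (107 and 90.9).

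Hspd1 and Hspe1, barrel and lid of the mitochondrial chaperonin, had their highest levels in lymphocyte classes. In Vehicle, Hspd1 was highest in NK cells at 232 CPM and in Glutoborin in B cells outside the marginal zone class at 145. The NK level again includes the dividing cells of clusters M14 and M15. Hspe1 was highest in CD8 T cells in both libraries (508 and 498 CPM). Classical and nonclassical monocytes had Hspd1 levels of 70.1 and 64.8 CPM in Vehicle and of 62.6 and 86.9 in Glutoborin. HSP90, J protein and chaperonin transcripts were detected in all 13 classes of both libraries, while Hspa1a and Hspa1b were highest in monocytes and in type 2 and mature dendritic cells, and at 0 UMIs in plasmacytoid dendritic cells and neutrophils.

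**Figure D1:**
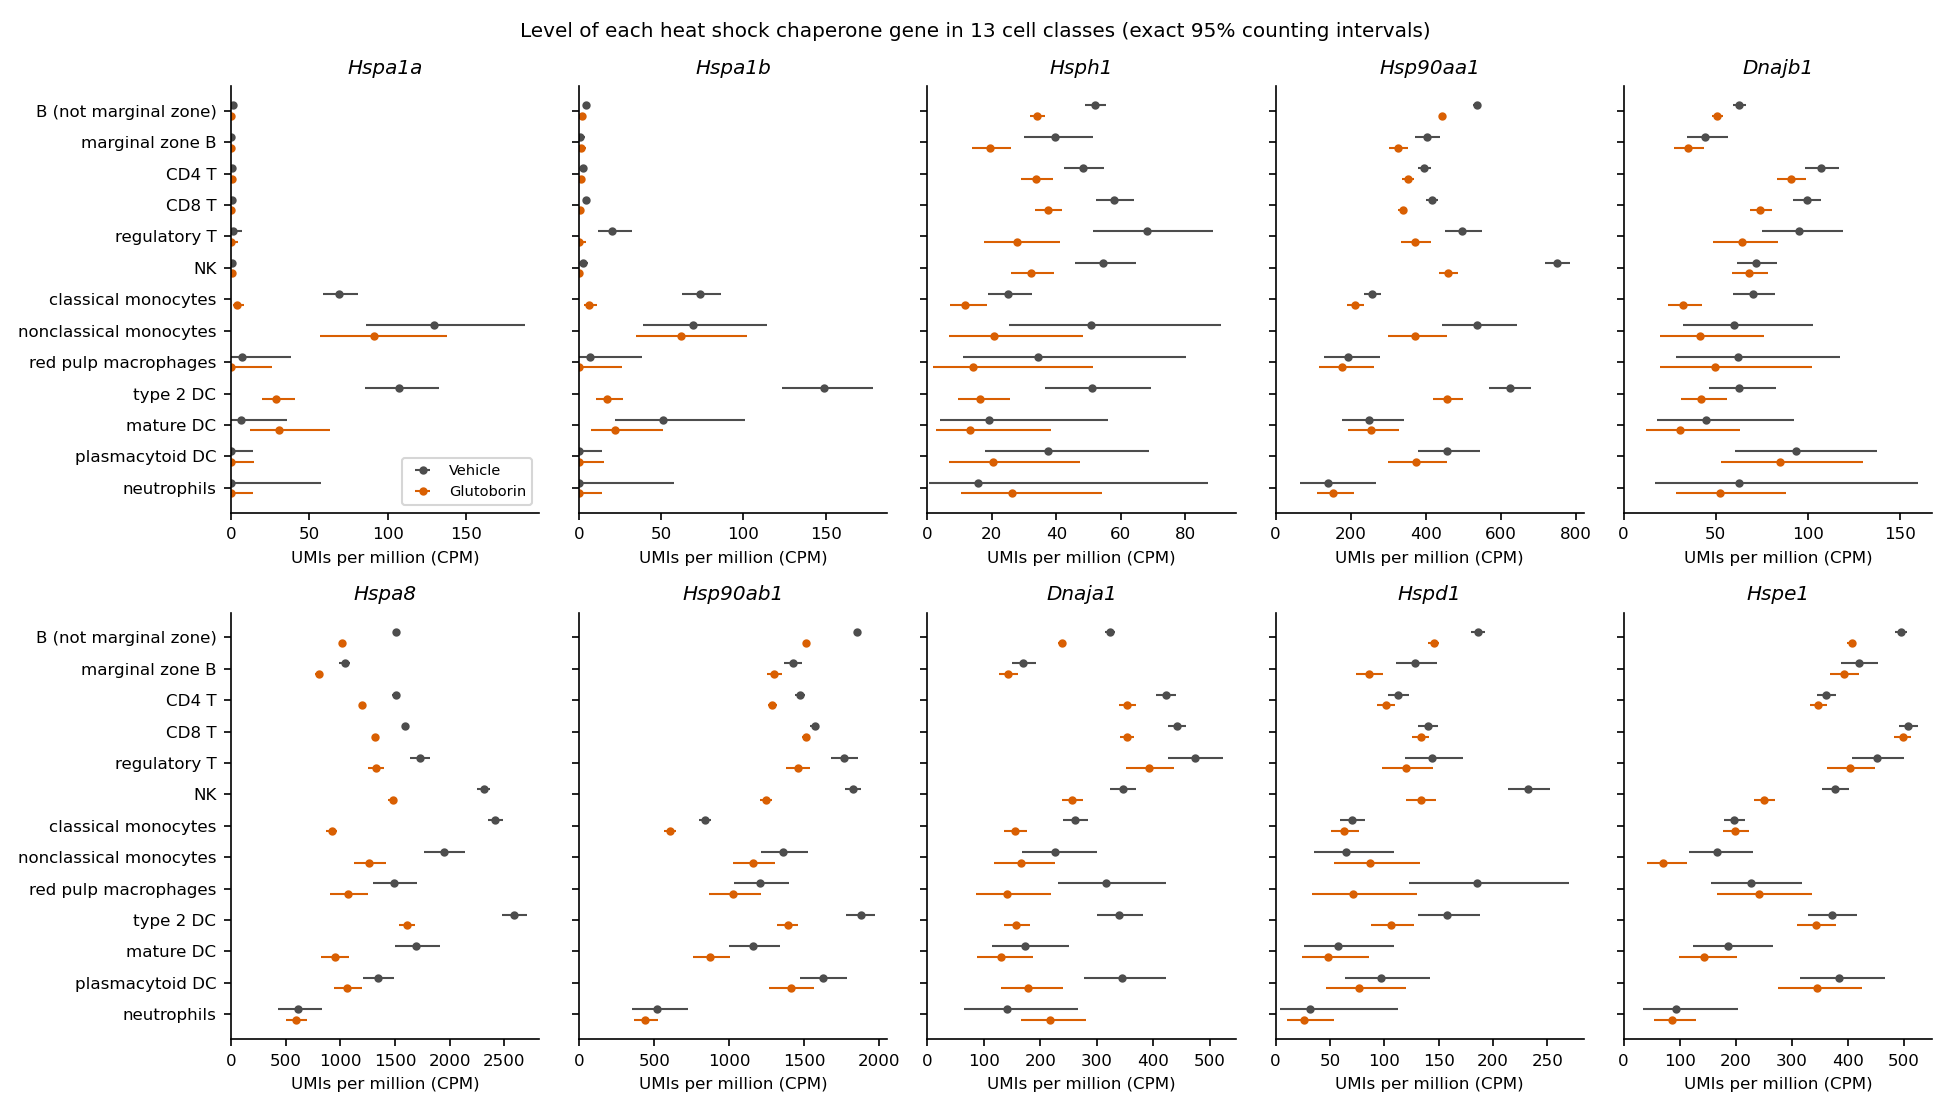
Levels of the 10 members in counts per 1000000 UMIs (CPM, horizontal axes, 1 panel per gene) in 13 cell classes (vertical axis), for Vehicle (grey) and Glutoborin (orange); points are levels of 1 library each and lines are exact 95% counting intervals. Hspa1a and Hspa1b stand out in monocytes and type 2 dendritic cells, and Hspa8 in classical monocytes is 2418 CPM in Vehicle and 920 in Glutoborin.

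Hspa1a and Hspa1b, the stress-induced cytosolic HSP70 genes, were rare transcripts: 983 UMIs together in all kept Vehicle cells and 192 in Glutoborin cells. In Vehicle, classical monocytes were 2.99% of kept cells and held 37.8% of the Hspa1a UMIs and 27.3% of the Hspa1b UMIs. Type 2 dendritic cells, 1.23% of cells, held 21.2% and 19.97%. The unnamed clusters, 7.15% of cells, held 20.4% and 24.4%. B cells outside the marginal zone class, 52.2% of cells, held 6.80% and 12.6%. The summed level of the pair in Vehicle was 256 CPM in type 2 dendritic cells, 199 in nonclassical monocytes, 143 in classical monocytes and 57.6 in mature dendritic cells. In B cells outside the marginal zone class it was 5.37 CPM, in CD8 T cells 5.18, in NK cells 3.21 and in CD4 T cells 3.22.

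The pair was lower in Glutoborin where it had been high in Vehicle, with nonclassical monocytes and mature dendritic cells apart. In classical monocytes 310 UMIs in 194 Vehicle cells faced 15 UMIs in 125 Glutoborin cells, 143 against 9.68 CPM, a log2 ratio of -3.88 (-4.74 to -3.14). In type 2 dendritic cells the level was 256 CPM in Vehicle and 45.8 in Glutoborin, a log2 ratio of -2.48 (-2.95 to -2.03). In nonclassical monocytes, with 42 cells in each library, 43 and 37 UMIs gave 199 and 153 CPM and a log2 ratio of -0.38, with an interval from -1.05 to 0.29 that includes no change. In mature dendritic cells 9 and 12 UMIs gave 57.6 and 52.4 CPM. Regulatory T cells had 16 Hspa1b UMIs in Vehicle, 7 of them in 1 of the 129 cells, and 0 in Glutoborin. The exact interval of this log2 ratio has no lower end and reaches up to -2.05.

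These UMIs sat in few cells. In monocytes of both kinds, the 10 richest cells held 64.0% of the 178 Hspa1a UMIs in Vehicle and 96.4% of the 28 in Glutoborin. The Glutoborin share follows largely from the low count, so the 2 shares cannot be compared. The richest single cells held 26 and 8 UMIs. After each cell was thinned to 2000 UMIs, 26 of 226 Vehicle monocytes (11.5%, exact interval 7.65 to 16.4) and 7 of 167 Glutoborin monocytes (4.19%, 1.70 to 8.45) had an Hspa1a UMI. The unthinned shares were 19.9% and 6.59%, at medians of 10880 and 11273 UMIs per cell. In B cells the thinned shares were 0.229% and 0.0195%, at unthinned medians of 4760 and 4117 UMIs. Lyz2, a lysozyme transcript of myeloid cells, was 100 CPM in Vehicle B cells and 37.8 in Glutoborin B cells. This is the direction of the few Hspa1a and Hspa1b UMIs of lymphocytes. Free RNA was not measured, and the part of myeloid RNA in those counts was not tested.

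**Figure D2:**
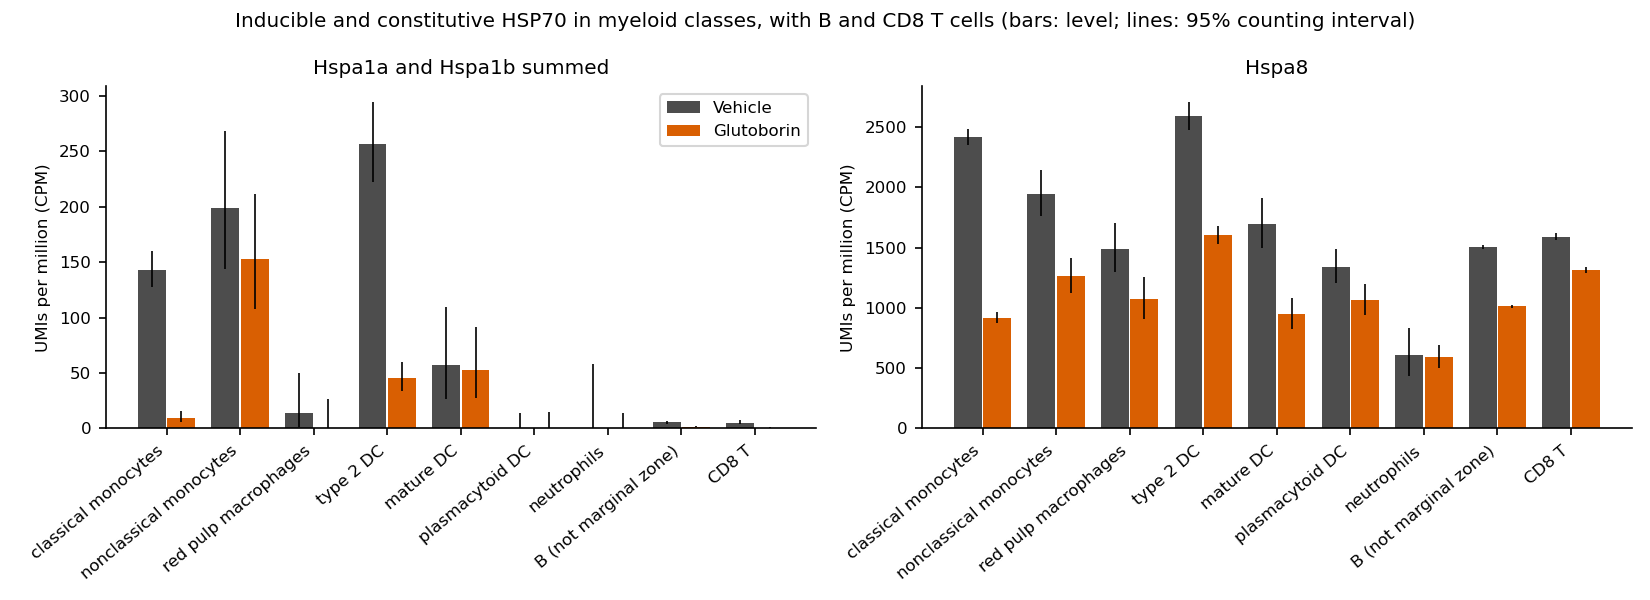
Levels in counts per 1000000 UMIs (CPM, vertical axes) of Hspa1a and Hspa1b summed (left) and of Hspa8 (right) in 7 myeloid and dendritic classes and, for comparison, B and CD8 T cells; bars are Vehicle (grey) and Glutoborin (orange) levels and lines exact 95% counting intervals. The summed pair in classical monocytes is 143 CPM in Vehicle and 9.68 in Glutoborin, while nonclassical monocytes have overlapping intervals.

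In monocytes as a whole, classical and nonclassical together (236 Vehicle and 167 Glutoborin cells), 6 of the 10 members were at least 1.5-fold lower in Glutoborin and 0 at least 1.5-fold higher. Of the 6792 genes with at least 50 UMIs in monocytes, 5.79% were lower and 3.62% higher by that rule. The 6 were Hspa1a, Hspa1b, Hsph1, Dnajb1, Hspa8 and Dnaja1. The filter of 50 UMIs is on both libraries together, and in Glutoborin Hspa1a, Hspa1b and Hsph1 had 28, 24 and 23 UMIs. With at least 200 UMIs, 4 of 8 members were at least 1.5-fold lower, against 4.59% of 3117 genes. Hspa8 was 2376 CPM in Vehicle and 967 in Glutoborin, a log2 ratio of -1.30 (-1.38 to -1.22), and only 40 of those 6792 genes had a lower ratio. Dnajb1 was 69.2 and 33.5 CPM, a log2 ratio of -1.05 (-1.50 to -0.61). Hsph1 rested on 65 and 23 UMIs, with a log2 ratio of -1.09 (-1.84 to -0.38). Dnaja1 had a log2 ratio of -0.72 (-0.93 to -0.52).

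The other 4 members moved less or not detectably in monocytes. Hsp90ab1 had a log2 ratio of -0.38 (-0.49 to -0.28) and Hsp90aa1 of -0.27 (-0.45 to -0.10). For Hspd1 (-0.08, interval -0.43 to 0.27) and Hspe1 (-0.09, -0.30 to 0.12) no difference was detectable at this depth. Transcripts of other lineages differed in the same monocytes: S100a9, a neutrophil gene that classical monocytes also express, was 541 CPM in Vehicle and 34.6 in Glutoborin, S100a8 586 and 245, Igkc 445 and 199, and Jchain 20.5 and 6.14, and their part in the member levels was not tested. In nonclassical monocytes S100a9 was 37.0 and 20.7 CPM and S100a8 18.5 and 16.5. The HSP70 machinery, its HSP110 exchange factor and both J proteins were thus the members past the fold limit, and HSP90 and the mitochondrial chaperonin were not.

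Hspa8 differed from Hspa1a in how its UMIs were spread over monocytes. The 10 richest Vehicle monocytes held 11.7% of the 5668 Hspa8 UMIs. At 2000 UMIs per cell, 220 of 226 Vehicle monocytes (97.3%, 94.3 to 99.0) and 131 of 167 Glutoborin monocytes (78.4%, 71.4 to 84.4) had an Hspa8 UMI, with means of 4.82 and 1.92 UMIs per thinned cell. The lower Hspa8 level was therefore spread over the monocytes, whereas Hspa1a was a transcript of a minority of them. Both clusters of classical monocytes showed it: Hspa8 was 2161 and 857 CPM in cluster M1 and 2874 and 1078 in cluster M3. In the nonclassical cluster M8 it was 1948 and 1266 CPM, a log2 ratio of -0.62 (-0.84 to -0.41). Type 2 dendritic cells had a log2 ratio of -0.69 for Hspa8 (-0.78 to -0.60) and of -1.66 for Hsph1 (-2.55 to -0.82). Monocytes were 3.64% of kept Vehicle and 1.88% of kept Glutoborin cells, and 2 unnamed clusters whose leading genes include Ly6i and Cxcl9, M13 and M17, held 32 and 36 Vehicle and 23 and 14 Glutoborin cells that are not in these counts.

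In the B and T cell classes fewer members were past the limit than in monocytes, and the ratios of all measured members were below 0. Of the members with at least 50 UMIs, 2 of 9 in B cells were at least 1.5-fold lower in Glutoborin (background 3.06% of 10779 genes), 0 of 8 in CD4 T cells (3.08%), 1 of 8 in CD8 T cells (3.44%) and 1 of 8 in regulatory T cells (4.87%). None of the measured members was at least 1.5-fold higher in these 4 classes, where 3.38%, 2.48%, 1.82% and 2.52% of genes were. The members past the limit were Hspa1b and Hsph1 in B cells and Hsph1 in CD8 T and in regulatory T cells. With at least 200 UMIs, 1 of 8 members was past the lower limit in B cells (background 2.29%) and 1 of 8 in CD8 T cells (1.95%). By that filter it was 0 of 8 in CD4 T cells (2.01%) and 0 of 6 in regulatory T cells (1.72%). Over all kept cells, Hspa1a, Hspa1b and Hsph1 were past it, 3 of 10 members against 3.07% of 12620 genes, and 0 were higher against 3.42%.

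Hsph1, which exchanges the nucleotide of HSP70, was past the limit in 5 of the 6 compared classes. Its level in Vehicle and Glutoborin was 51.1 and 32.9 CPM in B cells, a log2 ratio of -0.63 (-0.77 to -0.50). CD8 T cells had 58.0 and 37.3 CPM, which gives a log2 ratio of -0.64 (-0.86 to -0.42). CD4 T cells had 48.3 and 33.8 CPM, with a ratio of -0.51 (-0.80 to -0.23) that stays short of the limit. In regulatory T cells 55 and 24 UMIs gave a log2 ratio of -1.30 (-2.06 to -0.58). The CD8 call is close to the limit and was lost under 3 of the alternatives in the closing section.

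Hspa8 had the lowest ratio of the 3 constitutive members in 5 of the 6 compared classes; in CD8 T cells that of Dnaja1 was lower, at -0.32 (-0.39 to -0.25). Its log2 ratio was -0.56 (-0.59 to -0.54) in B cells, -0.33 (-0.38 to -0.28) in CD4 T cells, -0.28 (-0.31 to -0.24) in CD8 T cells and -0.38 (-0.50 to -0.27) in regulatory T cells. In B cells 3.20% of all measured genes had a lower ratio, and in CD4 T cells 9.89%. Hsp90aa1 in B cells was 527 CPM in Vehicle and 433 in Glutoborin, a log2 ratio of -0.28 (-0.32 to -0.25). Its constitutive paralog Hsp90ab1 was 1820 and 1493 CPM there, with the same ratio of -0.29 (-0.31 to -0.27).

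The mitochondrial pair split the lymphocytes. In B cells the log2 ratio was -0.38 (-0.44 to -0.31) for Hspd1 and -0.27 (-0.31 to -0.23) for Hspe1. In CD8 T cells it was -0.07 (-0.19 to 0.06) and -0.03 (-0.10 to 0.04), and in CD4 T cells -0.15 (-0.32 to 0.02) and -0.06 (-0.15 to 0.03), so that no difference was detectable in T cells at this depth. For the CD8 T cells, 4 of the alternatives turned the sign of the Hspe1 ratio.

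**Figure D3:**
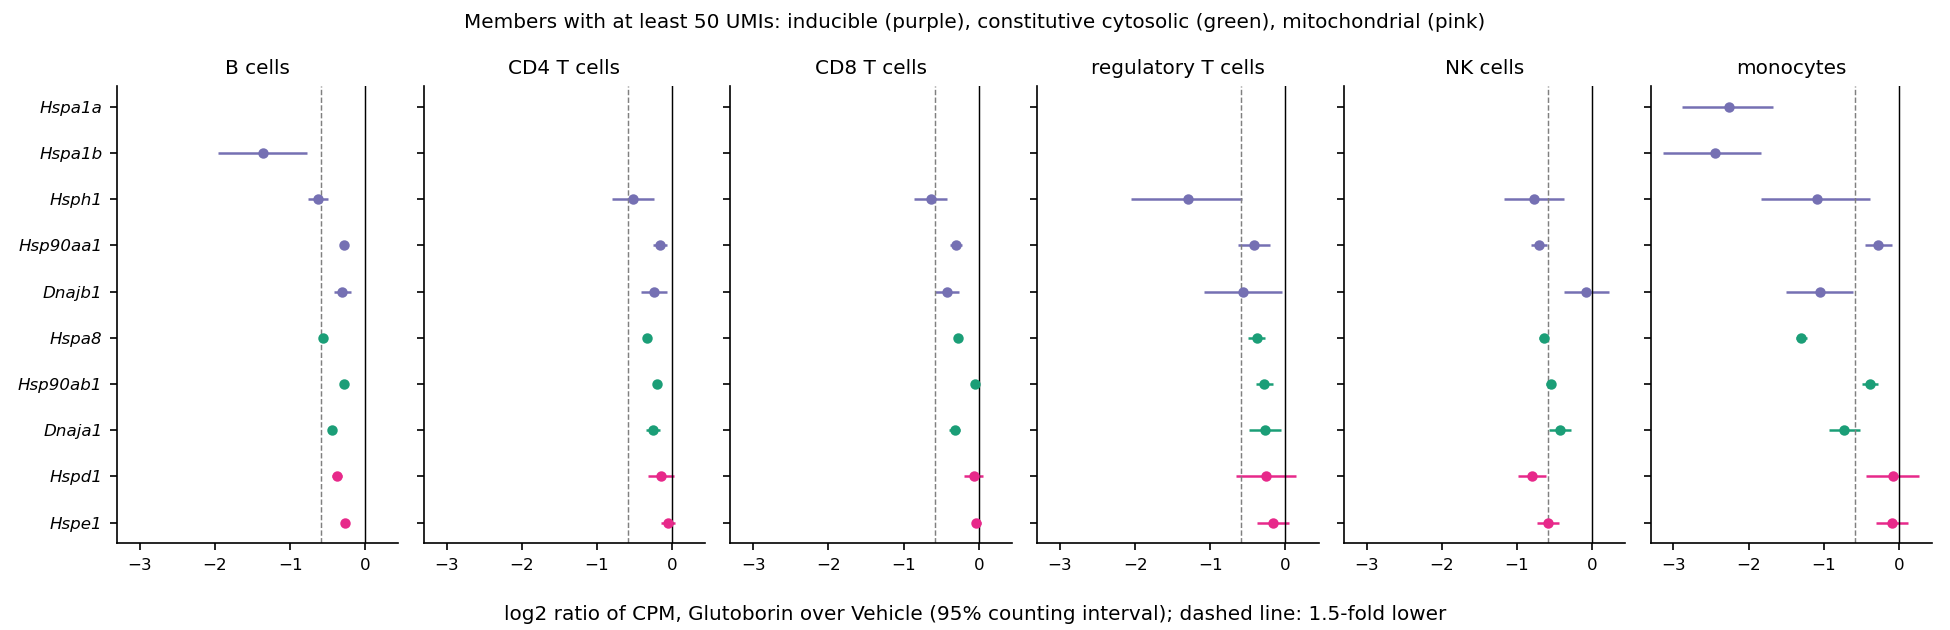
Log2 ratio of CPM, Glutoborin over Vehicle (horizontal axis), for members with at least 50 UMIs (vertical axis) in 6 cell classes; points are single-library ratios, lines exact 95% counting intervals, and the dashed line is 1.5-fold lower. Monocytes have 6 members left of the dashed line and CD4 T cells 0, and in NK cells 5 members are left of it.

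The summed inducible and summed constitutive members differed between libraries by similar amounts. In all kept cells the inducible sum was 678 CPM in Vehicle and 498 in Glutoborin, a log2 ratio of -0.44 (-0.47 to -0.42), and the constitutive cytosolic sum 3811 and 2840, a log2 ratio of -0.42 (-0.43 to -0.41). Per 100 UMIs of constitutive members there were 17.8 inducible UMIs in Vehicle (17.6 to 18.0) and 17.5 in Glutoborin (17.3 to 17.8). In CD8 T cells this number was 16.1 in Vehicle (15.5 to 16.6) and 14.2 in Glutoborin (13.7 to 14.7), and in B cells 17.9 (17.5 to 18.2) and 19.0 (18.7 to 19.4). In monocytes it was 14.98 (14.1 to 15.9) and 17.2 (15.7 to 18.8). With all cells of a class pooled, the balance thus differed in opposite directions in CD8 T and B cells. The B cells include the cycling cluster C22, described below, with a log2 ratio of 0.51 for the inducible and 0.10 for the constitutive sum. The B cell balance without C22 is not given here, and the inducible ratio of B cells moved with the settings in the closing section.

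The balance within paralog pairs did not follow that of the sums in every class. For every 100 Hsp90ab1 UMIs, B cells, with C22 included, had 29.0 Hsp90aa1 UMIs in each library. In CD8 T cells the number was 26.6 in Vehicle (25.5 to 27.7) and 22.4 in Glutoborin (21.5 to 23.3). Within C22 the log2 ratio was 0.54 for Hsp90aa1 and 0.24 for Hsp90ab1. The pair Hspa1a and Hspa1b gave 6.23 UMIs per 100 Hspa8 UMIs in Vehicle monocytes (5.58 to 6.94) and 3.002 in Glutoborin monocytes (2.23 to 3.96). These numbers pool both kinds of monocytes. In the nonclassical cluster M8 the log2 ratio was -0.38 for the pair and -0.62 for Hspa8, with overlapping intervals. Dnajb1 per 100 Dnaja1 had overlapping intervals in all 6 classes, for example 19.7 and 21.6 in B cells. These are ratios of UMIs and not of molecules per cell, since the capture of each transcript can differ.

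In NK cells Hsp90aa1 and both mitochondrial members were also past the limit: 5 of 8 measured members were at least 1.5-fold lower (background 5.74%) and 0 higher (6.83%). They were Hsph1, Hsp90aa1, Hspa8, Hspd1 and Hspe1. Hsp90aa1 was 750 and 459 CPM, with a log2 ratio of -0.71 (-0.81 to -0.60). Hspd1 was 232 and 133 CPM, with a ratio of -0.80 (-0.99 to -0.61). Dnajb1, by contrast, was 71.9 and 68.0 CPM, with an interval of the log2 ratio from -0.38 to 0.22.

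The NK count depends on the cycling cells. Clusters M14 and M15, in which Mki67, a gene of dividing cells, was detected in 100% and 56.6% of cells, had the highest levels of the inducible sum, 1512 and 1243 CPM in Vehicle. M15 held 42 of 253 Vehicle NK cells (16.6%) and 11 of 356 Glutoborin NK cells (3.09%). Without the cycling clusters, an alternative added after the data were seen, 0 of the 8 members were past the limit, and the log2 ratio of the inducible sum was -0.44 instead of -0.65. It was negative in each of the 5 NK clusters, from -0.10 in M5 (-0.35 to 0.14) to -0.79 in M14 (-0.97 to -0.61).

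**Figure D4:**
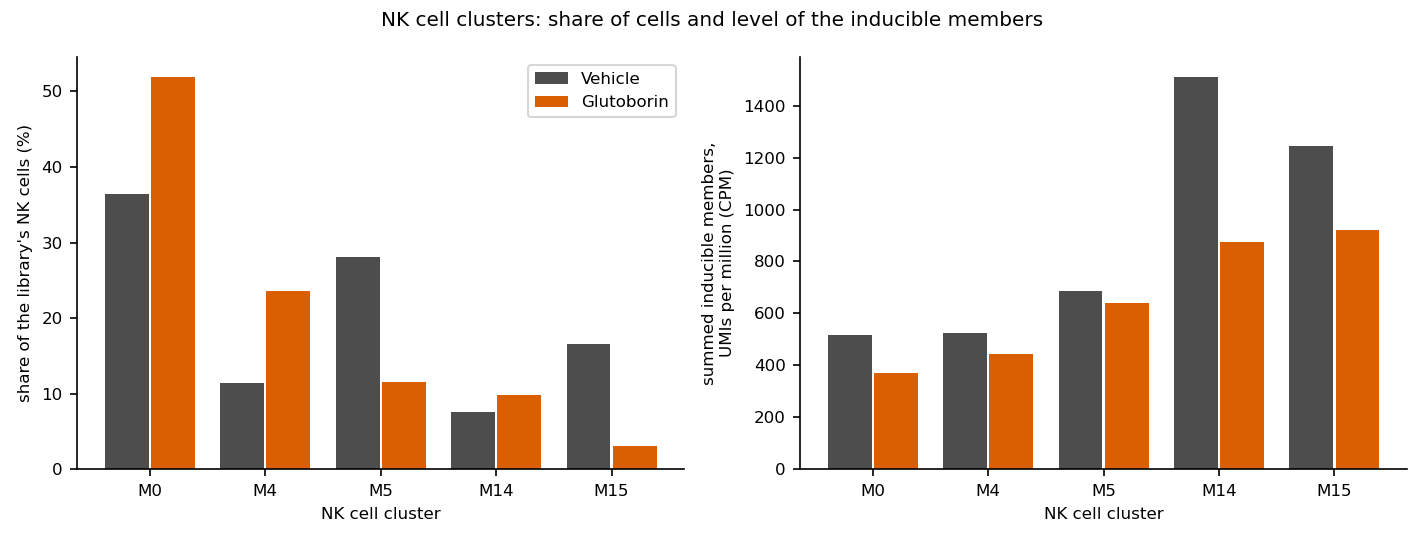
Share of each library's NK cells (%, left) and level of the summed inducible members in counts per 1000000 UMIs (CPM, right) in 5 NK cell clusters (horizontal axes), Vehicle in grey and Glutoborin in orange, 1 value per library. The cycling clusters M14 and M15 have the highest levels, and M15 is 16.6% of Vehicle and 3.09% of Glutoborin NK cells.

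Among 11 clusters of B cells the members were highest in 2 clusters. C5, whose cells had the highest Egr3 and Cd83, genes of antigen receptor signalling, had an inducible sum of 1139 CPM in Vehicle and 860 in Glutoborin. C22, the cycling cluster with 28 Vehicle and 52 Glutoborin cells, had 1003 and 1427. The other 9 clusters lay between 452 and 703 CPM in Vehicle. Both of the high clusters also had the highest mitochondrial sums, 1403 CPM in C5 and 1120 in C22 in Vehicle. C5 and C22 were thus the highest clusters in Vehicle for inducible, constitutive and mitochondrial members alike.

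The inducible sum was lower in Glutoborin in 10 of the 11 B cell clusters, with the interval of the ratio below 0 in 9, and the constitutive sum was lower with its interval below 0 in 10. The exception was C22. Its log2 ratio was 0.51 (0.36 to 0.66) for the inducible sum, 0.54 (0.39 to 0.70) for Hsp90aa1 and 0.75 (0.03 to 1.53) for Hsph1, whereas Hspa8 was 2286 and 2197 CPM with an interval from -0.16 to 0.05. The 5 richest cells of C22 held 47.0% of its Hsp90aa1 UMIs in Vehicle and 49.4% in Glutoborin, and the median cell had 618 and 901 CPM of Hsp90aa1. Without cycling clusters the inducible sum of all B cells had a log2 ratio of -0.42 instead of -0.32. C13, the cluster with the highest Ifit3, an interferon-induced gene, held 387 Vehicle and 69 Glutoborin cells, and C7 held 152 and 751; their inducible sums had log2 ratios of -0.17 (-0.40 to 0.05) and -0.22 (-0.40 to -0.04). Within single clusters, too, the members were thus mostly lower in Glutoborin.

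**Figure D5:**
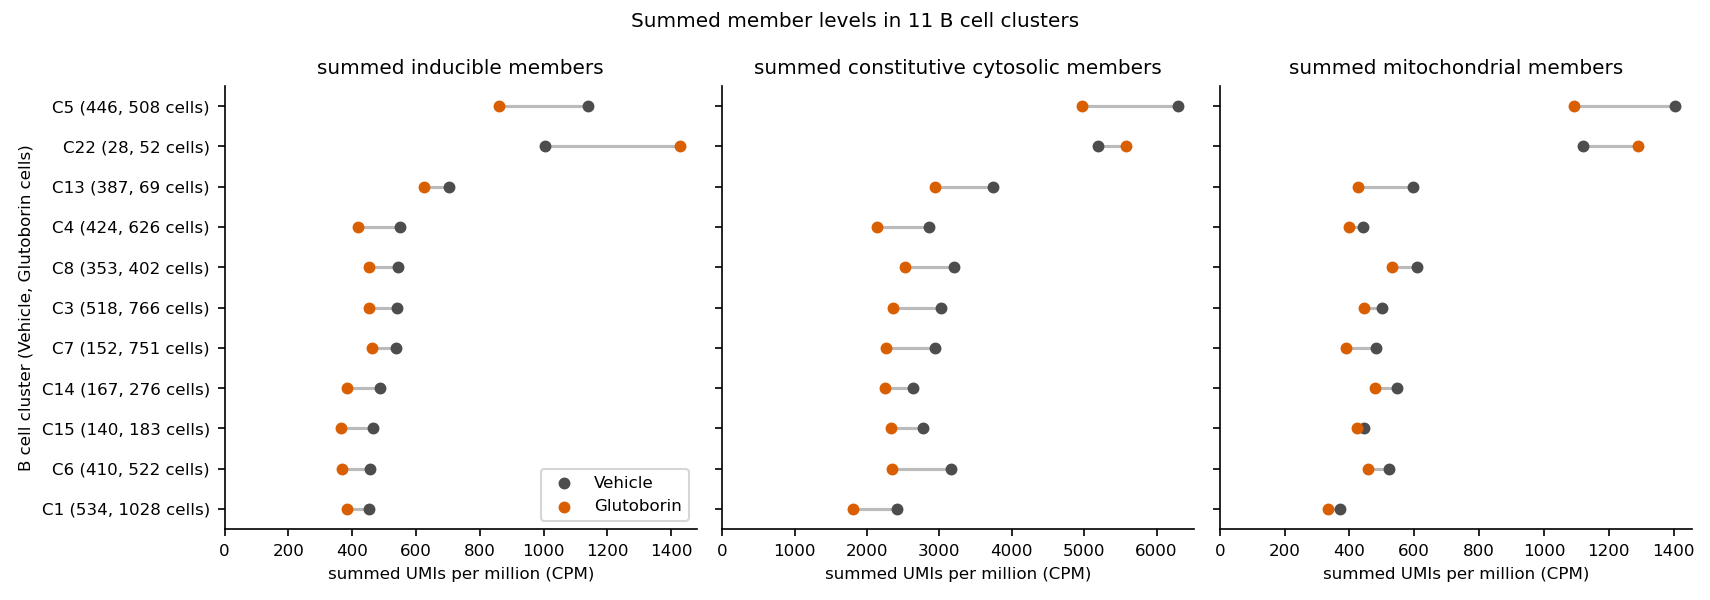
Summed levels in counts per 1000000 UMIs (CPM, horizontal axes) of inducible, constitutive cytosolic and mitochondrial members in 11 B cell clusters (vertical axis, with Vehicle and Glutoborin cell numbers), 1 point per library and a line joining them. Glutoborin points lie left of Vehicle points in all clusters but the cycling cluster C22, where the inducible sum is 1003 CPM in Vehicle and 1427 in Glutoborin.

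Cell quality was compared within strata. In B cells with 4 to 5% mitochondrial UMIs (1336 and 2101 cells), the inducible sum per 1000000 nuclear-encoded UMIs was 704 in Vehicle and 536 in Glutoborin, and in those with 5 to 7% (1082 and 1658 cells) 588 and 467. The constitutive sum was lower in Glutoborin in each of 6 mitochondrial strata below 10%, and the inducible sum in 5; the stratum under 2%, with 40 and 41 cells, had 482 and 504. In B cells with 4000 to 5000 UMIs the inducible sum was 566 and 461 CPM and Hspa8 1361 and 919. Under 2000 UMIs, where 58 and 57 cells lie, Hspa8 was 945 and 974. The difference was thus present within strata of mitochondrial share and, separately, within strata of depth, in those that hold most cells. No stratum was matched on both, the top depth stratum has no upper limit, and the part of cell quality in the difference was not tested.

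The medians of the other cytosolic and endoplasmic reticulum chaperone lists were nearer to 0 than those of the inducible and constitutive members in B cells, NK cells and monocytes. List medians of the T cell classes are not given here, so this statement does not extend to them. In B cells, 20 cochaperones of HSP70 and HSP90 with enough UMIs had a median log2 ratio of -0.07, with 0 at least 1.5-fold lower and 1 higher, Bag2, a nucleotide exchange factor of HSP70 (29 and 57 UMIs). The 14 genes of the CCT chaperonin and prefoldin, which fold actin and tubulin, had a median of -0.10, and 15 endoplasmic reticulum chaperones a median of -0.09, with 0 past the limit in either direction in both lists. None was past it either among 5 other HSP70 and HSP110 genes (median 0.22), 11 other J proteins (-0.02) and 11 mitochondrial chaperones and proteases (0.01). The same held for 3 heat shock factors and their regulators (0.03) and 2 cold-inducible RNA-binding proteins (0.26). It also held for the 2 measured genes listed as small heat shock proteins (0.19), Hspb6 with 36 and 49 UMIs and Hspb11 with 420 and 677. The median of these 2 genes does not describe small heat shock proteins in general. All 10779 genes had a median of 0.03, with 3.06% at least 1.5-fold lower and 3.38% at least 1.5-fold higher. For the measured members the medians were -0.47 for 4 inducible, -0.44 for 3 constitutive and -0.32 for 2 mitochondrial genes. In monocytes the medians were -0.08 for 20 cochaperones and -0.01 for 15 endoplasmic reticulum chaperones, against -1.09 for the inducible members. In NK cells the 19 genes of the cochaperone list had a median of -0.43 and 15 endoplasmic reticulum chaperones of -0.45. Past the lower limit were 2 genes of each list, Stip1 and Pphln1, and Hspa5 and Hyou1, named after their values were seen. By the same limit, 5.74% of all 7671 genes were lower in NK cells. The cochaperone list held Pphln1 in B cells, monocytes and NK cells alike, although Pphln1 is not an established cochaperone of HSP70 or HSP90. The NK medians of the other lists were -0.32 for CCT and prefoldin (Tcp1 past the limit), -0.26 for mitochondrial chaperones and proteases (Hspa9 and Dnaja3 past it), -0.20 for other HSP70 and HSP110 genes and -0.17 for other J proteins. The NK lists, like the members there, come from cells of which the cycling cluster M15 is 16.6% in Vehicle and 3.09% in Glutoborin.

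Some single genes outside the members were chosen after their values were seen. Stip1, which joins HSP70 to HSP90, had a log2 ratio of -0.40 in B cells (-0.50 to -0.29), -0.53 in monocytes (-1.04 to -0.04) and -0.69 in NK cells (-0.96 to -0.42). Hspa5, the HSP70 of the endoplasmic reticulum, had -0.34 in B cells (-0.38 to -0.29) and -0.34 in monocytes (-0.47 to -0.21). Bag3, which HSF1 induces, was 24.7 and 29.6 CPM in monocytes (59 and 53 UMIs), where Hspa1a was lower in Glutoborin. Hsf1 itself was 35.7 and 32.2 CPM in B cells. Cirbp, an RNA-binding protein induced by cold, was higher in Glutoborin in all 6 classes, for example 97.0 and 134 CPM in B cells, a log2 ratio of 0.47 (0.39 to 0.55), with the interval including 0 in monocytes. Rbm3, induced by cold as well, was 665 and 691 CPM in B cells.

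Immediate early genes, which respond to cell stimulation and to dissociation within minutes, were measured beside the members. In B cells, 4 of 20 were at least 1.5-fold lower in Glutoborin (background 3.06%): Atf3 (9.47 and 2.96 CPM), Ier3 (4.39 and 1.48), Fosl2 (2.02 and 0.720) and Jun (280 and 168). The median of the list was -0.35. In monocytes 2 of 18 were lower (background 5.79%), Egr1 and Nfkbia. The median there was -0.14, with Atf3 at 367 and 262 CPM but Jun at 408 and 477. In NK cells, where 5 of 8 members were lower, 0 of 16 immediate early genes were lower (background 5.74%). In the same cells 2 were higher (background 6.83%), Nr4a1 and Egr1, and the median was 0.18. The list thus had the direction of the members in B cells and not in NK cells, and its relation to the members was not tested.

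Most transcripts of the foreign lineage list also had the direction of the members. In B cells, to whose lineage the listed Igkc and Jchain belong, 5 of the 7 were at least 1.5-fold lower in Glutoborin (background 3.06%). Among them were Lyz2, S100a8 and Jchain with log2 ratios of -1.41, -1.31 and -1.27. Igkc had a log2 ratio of -0.03, and the haemoglobin gene Hba-a1 was higher, at 1.66. In CD4 T cells the summed level of 7 transcripts of other lineages, led by the immunoglobulin light chain gene Igkc, was 776 CPM in Vehicle and 343 in Glutoborin, in CD8 T cells 590 and 273 and in NK cells 748 and 336. In CD4 T and CD8 T cells, 5 of 5 measured ones were at least 1.5-fold lower in Glutoborin (background 3.08% and 3.44%). The part of free RNA in the member levels was not tested.

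The genes whose levels over 13 classes and 2 libraries (26 points, which share libraries and depth) were most like those of the members were named as a description. Of 9107 genes ranked, those most like the inducible sum were Lsm3 (Pearson r = 0.84), Nsmce4a (0.83), Ssb (0.82), Supt16 (0.82) and Usp1 (0.80). Those most like the constitutive cytosolic sum were Ssb (0.89), Hnrnpab (0.84), Ptges3 (0.84), Eif4e (0.83) and Eftud2 (0.81). Ptges3 encodes p23, a cochaperone of HSP90, and was the only one of the 9 genes in the chaperone lists.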

How the data were processed

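CD45+ spleen cells of mice were profiled with 10x 3′ v3.1 chemistry, 1 library per condition. Reads were counted with Cell Ranger 6.1.2, per the file headers; the submitters' processing notes name Cell Ranger 6.0.1, Seurat 4.3.0 and mm10; no annotation release is named. The deposited values are raw UMI counts made by the authors. Barcodes with at least 10% mitochondrial UMIs and called doublets (196 in Vehicle, 352 in Glutoborin) were left out. Cells were clustered by the Leiden method (scanpy 1.11.5, leidenalg 0.10.2) without the members and related lists, and clusters were named from marker lists, with limits set after the clusters were seen. Levels are UMIs summed over a class per 1000000; members and genes with at least 50 UMIs were measured, and 1.5-fold was the limit. With 1 library per condition there is no test: Poisson, binomial and conditional intervals cover counting error only. Named were all members and, of the fixed lists, up to 4 genes with the largest ratio past the limit in B cells, and the 5 genes most like each sum in pattern; others are said to be chosen after their values were seen. The members and lists were chosen with earlier results of these data known. Intervals were tested only on simulated Poisson counts. These lack the clumping of UMIs in few cells, so the test cannot show whether the intervals are wide enough for the sampling of cells. TMM factors came from edgeR 4.0.16 on the deposited counts, used only to rescale totals.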

Additional observations from a re-analysis of the deposited data

Results flagged for a closer look

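In the cycling B cell cluster C22, with 28 Vehicle and 52 Glutoborin cells, 4 members and all 3 sums were higher in Glutoborin with intervals above 0, while in the other B cells they were lower. The log2 ratio was 0.75 for Hsph1, 0.54 for Hsp90aa1, 0.24 for Hsp90ab1 and 0.39 for Hspd1. It was 0.51 for the summed inducible, 0.10 for the summed constitutive cytosolic and 0.20 for the summed mitochondrial members. The difference between C22 and the other B cells was not tested. In the cycling NK cluster M14 the inducible sum was lower in Glutoborin, with a log2 ratio of -0.79.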

How the results depend on the processing

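No paired analysis was possible because each condition is 1 library. Leaving out a replicate was not possible for the same reason. Over all settings, 797 of 809 results kept their direction. The 12 exceptions were Hspd1, Hspe1 and the mitochondrial sum in CD8 T cells, Dnajb1 in NK cells and Hspe1 in monocytes, whose reported intervals include 0. Sizes depended more on the setting for some results. The log2 ratio of Hspa1b in monocytes, reported as -2.45, ranged from -2.51 to -1.46, while that of Hspa8 in B cells ranged from -0.63 to -0.54. The count of members at least 1.5-fold lower went from 0 to 1 in CD4 T cells with the mean of per-cell CPM or thinning to 2000 UMIs, and from 1 to 0 in CD8 T cells with these and with TMM totals. In regulatory T cells it went from 1 to 2 with a 25% mitochondrial limit, doublets kept, at least 1500 UMIs, Leiden resolution 0.8 or thinning, and to 4 with marker gates. In NK cells it went from 5 to 3 with thinning, and, in alternatives added after the data were seen, to 0 without cycling clusters and 1 without clusters held at a 3-fold different share. The inducible sum over all kept cells moved from -0.44 to -0.41 without mitochondrial and ribosomal protein genes in the total, -0.38 with per-cell means and -0.40 with thinning. In B cells it moved from -0.32 to -0.38 (5% mitochondrial limit), -0.40 (25% limit), -0.39 (doublets kept, at least 1500 UMIs, or Leiden resolution 0.8), -0.40 (thinning or marker gates) and -0.42 (without cycling clusters). The causes were not tested. Hspa1a and Hspa1b are limited by depth outside monocytes and dendritic cells, where fewer than 50 UMIs were counted in T and NK cells.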
